A study of Mus musculus
Rattus norvegicus and Mus musculus and Rattus norvegicus with 95 samples.

Results

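Mt1 and Mt2 encode metallothionein 1 and metallothionein 2, small cysteine-rich proteins that bind zinc and copper. They were taken by symbol as 2 of the 13926 mouse-rat homologues measured, and each had a value in every library. The pair was chosen by its FPKM levels in these same libraries, so those levels are given as a description and without a test. The measurements came from allodiploid embryonic stem cells (AdESCs), hybrids that carry a haploid mouse and a haploid rat genome, and from cells derived from them. Differentiated single cells formed 7 samples. They were EB cells grown from AdESC lines MR2-1 (12 cells) and RM1-1 (5), fibroblasts of a mouse chimaera of MR1-1 (10), neurons (8) and somatic testis cells (4) of a mouse chimaera of RM1-1, and lung (4) and somatic testis cells (20) of a rat chimaera of RM2-1. Undifferentiated AdESC cells formed 4 samples, from MR1-1 (6 cells), MR2-1 (8), RM1-1 (4) and RM2-1 (6). Bulk RNA of stem cells in G0/G1 came from the same 4 AdESC lines, from rat ESC lines DA25 and DA53 and from mouse ESC lines F145 and F146, 1 library per line. Each line is a single isolate, a chimaera sample comes from 1 labelled line and host species, and no age, sex or strain of the animals was used here.

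Metallothioneins hold zinc and copper in clusters of cysteine thiolates and release them to other proteins, and they also react with oxidants. Transcription of Mt1 and Mt2 is raised by the zinc-sensing factor MTF1, which acts on metal response elements in their promoters, and by glucocorticoids and oxidative stress. MTF1 also drives Slc30a1, a zinc exporter of the plasma membrane, so these genes are commonly read together as signs of free zinc. Mt3 is a relative found mainly in brain, and Mt4 one of stratified epithelium.

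The 2 genes lie on the plus strand of mouse chromosome 8 (mm10), Mt2 at chr8:94172664-94173568 and Mt1 at chr8:94179082-94180327, with 5513 bases between them, and each has 3 exons. Their coding sequences are printed because the pair has to be told apart by short transcripts of like sequence. The letters run from start to stop codon of 1 GENCODE vM21 transcript each, and capitals mark the in-frame cysteine codons.
Mt1: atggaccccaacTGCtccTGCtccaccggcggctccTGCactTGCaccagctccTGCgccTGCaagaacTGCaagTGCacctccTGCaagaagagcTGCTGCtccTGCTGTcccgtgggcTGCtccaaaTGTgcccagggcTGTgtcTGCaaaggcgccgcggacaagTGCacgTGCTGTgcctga
Mt2: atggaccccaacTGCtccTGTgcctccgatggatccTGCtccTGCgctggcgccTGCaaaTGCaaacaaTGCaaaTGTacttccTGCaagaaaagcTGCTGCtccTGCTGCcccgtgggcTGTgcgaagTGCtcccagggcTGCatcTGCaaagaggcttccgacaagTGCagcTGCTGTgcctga
Both coding sequences are 186 bases long and hold 20 cysteine codons among 61 codons, and all 20 stand at the same places. The bases were the same at 148 positions (79.6%). The longest identical run between the transcripts was 20 bases, and neither transcript shared a stretch of 50 bases with a transcript of another mouse gene. Transcript lengths were 549 bases for Mt1 and 511 bases for Mt2. Values are FPKM (fragments scaled by transcript length and by the mapped fragments of the library), so the 2 lengths are allowed for. Rat transcripts were not checked for shared stretches, and other differences in how the 2 genes are measured were not tested.

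The labels were checked against marker genes, and some samples went against them, at least in part. The stem cell list (6 of 10 listed genes in the tables) summed to between 8.88 and 110.2 FPKM in differentiated samples and to between 748.5 and 960.2 FPKM in AdESC samples, and Nanog was at 0.148 FPKM or less in the differentiated samples and at 424.5 or more in AdESC. Cells labelled as RM1-1 testis held neural genes: Gap43 stood at 235 FPKM and Slc1a3, a glial glutamate transporter, at 154 FPKM, while 5 of 6 Leydig and 4 of 6 Sertoli markers were at 0. RM2-1 lung cells averaged 1028 FPKM of Cyp11a1, the first enzyme of steroid synthesis, with the surfactant genes Sftpc, Sftpa1 and Sftpd at 0. Cyp11a1 was above 100 FPKM in 2 of the 4 lung cells. Of 6 Leydig markers, 4 reached 1 FPKM in the lung sample, and Cyp17a1 and Lhcgr were at 0. Of 8 lung epithelium markers, 7 were at 0. The lung sample also held 12 of 16 fibroblast and feeder genes at 1 FPKM or more, among them Col3a1 at 127.9 FPKM. All 3 smooth muscle genes reached 1 FPKM there, with Tagln at 2390 FPKM. The RM1-1 neuron sample held 9 of 10 neuron markers at 1 FPKM or more, among them Gap43 at 224 FPKM, Tubb3 at 168.6 FPKM and Stmn2 at 118.7 FPKM, with Rbfox3 at 0.0594 FPKM, and it also held Slc1a3 at 316 FPKM. MR1-1 fibroblasts carried the epithelial adhesion genes Epcam at 82.7 FPKM and Cdh1 at 41.4 FPKM, beside Lum at 146.4 FPKM. Summed FPKM ran from 213045 to 411555 over the 87 cells and from 312695 to 377664 over the 8 bulk libraries. Read depth is unknown.

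Mt1 and Mt2 were both lower in every differentiated sample than in every AdESC sample. The share of all genes separated in this way was not counted, so how common such separation is cannot be told. By a different measure, limma called 15.9% of 8421 genes between these groups at an adjusted p under 0.05. Mt1 averaged 88.9 ± 61.9 FPKM over the differentiated samples (SD, n = 7) and 651.6 ± 145.4 FPKM over the AdESC samples (SD, n = 4). Mt2 averaged 43.5 ± 50.3 FPKM over the differentiated samples and 789 ± 191 FPKM over the AdESC samples. The ratio of the group means, AdESC over differentiated, was 7.33 for Mt1 and 18.1 for Mt2. On the log2(FPKM + 1) scale, where each sample is the mean of its cells, differentiated minus AdESC came to -3.31 for Mt1, with a pooled SD of 1.196, and to -5.21 for Mt2, with a pooled SD of 1.70.

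Among differentiated samples the lowest Mt1 mean was 14.8 FPKM in RM1-1 EB cells, the median 97.3 FPKM in RM1-1 testis cells and the highest 180.1 FPKM in RM2-1 lung cells. The other Mt1 means were 15.1 FPKM in RM2-1 testis, 62.8 in MR2-1 EB, 114.7 in RM1-1 neurons and 137 in MR1-1 fibroblasts. AdESC means were 535 FPKM in MR1-1, 585 in MR2-1, 624 in RM1-1 and 863 in RM2-1. For Mt2 the differentiated samples split further. Means were 2.95 FPKM in RM1-1 EB, 4.61 in MR2-1 EB, 5.58 in RM2-1 testis and 16.9 in RM2-1 lung, then 48.6 in MR1-1 fibroblasts, 101 in RM1-1 neurons and 124 in RM1-1 testis. AdESC means of Mt2 were 515 FPKM in MR2-1, 805 in MR1-1, 895 in RM2-1 and 939 in RM1-1.

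Each derivative could be set against AdESC cells of its own line. Mt1 was lower in all 7, least in MR1-1 fibroblasts (137 FPKM, against 535 in MR1-1 AdESC, a log2 difference of -1.96) and most in RM2-1 testis (15.1 FPKM, against 863 in RM2-1 AdESC, a log2 difference of -5.74). Mt2 was also lower in all 7, least in RM1-1 testis (124 FPKM, against 939 in RM1-1 AdESC, a log2 difference of -2.91) and most in RM1-1 EB (2.95 FPKM, against the same 939, a log2 difference of -7.89). Derivatives of 1 line stood apart too: RM1-1 EB cells were below RM1-1 neurons and RM1-1 testis cells for both genes. Some of these places turned on which cells were left out, with all AdESC cells kept. Without the highest fibroblast cell alone, the Mt1 difference was -2.39 in fibroblasts, beyond that of RM2-1 lung (-2.25). With the highest cell left out of every differentiated sample, lung was at -2.69 and fibroblasts remained least. Without the highest RM1-1 EB cell, the Mt1 difference was -6.32 there, beyond RM2-1 testis with its highest cell (-5.74) or without it (-5.89). Without the highest RM1-1 testis cell alone, the Mt2 difference was -3.81 there, beyond RM1-1 neurons (-3.199). Neurons without their own highest cell were at -4.02, so RM1-1 testis then remained least. For Mt2, RM1-1 EB without its highest cell was further from its AdESC cells (-9.06). Samples of a line share their reference, so these differences are not independent. Without the RM1-1 testis and RM2-1 lung samples, differentiated minus AdESC was -3.73 for Mt1 and -5.69 for Mt2. Markers in RM1-1 testis went against its label. In RM2-1 lung they did so only in part, since 2 of 4 cells had Cyp11a1 above 100 FPKM and fibroblast and smooth muscle genes were also present. MR1-1 fibroblasts, where 6 of 10 cells had Epcam at 10 FPKM or more, were kept in. Taking the median over cells in place of the mean gave -3.81 for Mt1 and -6.90 for Mt2, averaging log2 values over cells gave -3.98 and -6.56, and leaving out the highest cell of every sample, chosen after seeing the data, gave -3.56 and -6.07.

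**Figure D1:**
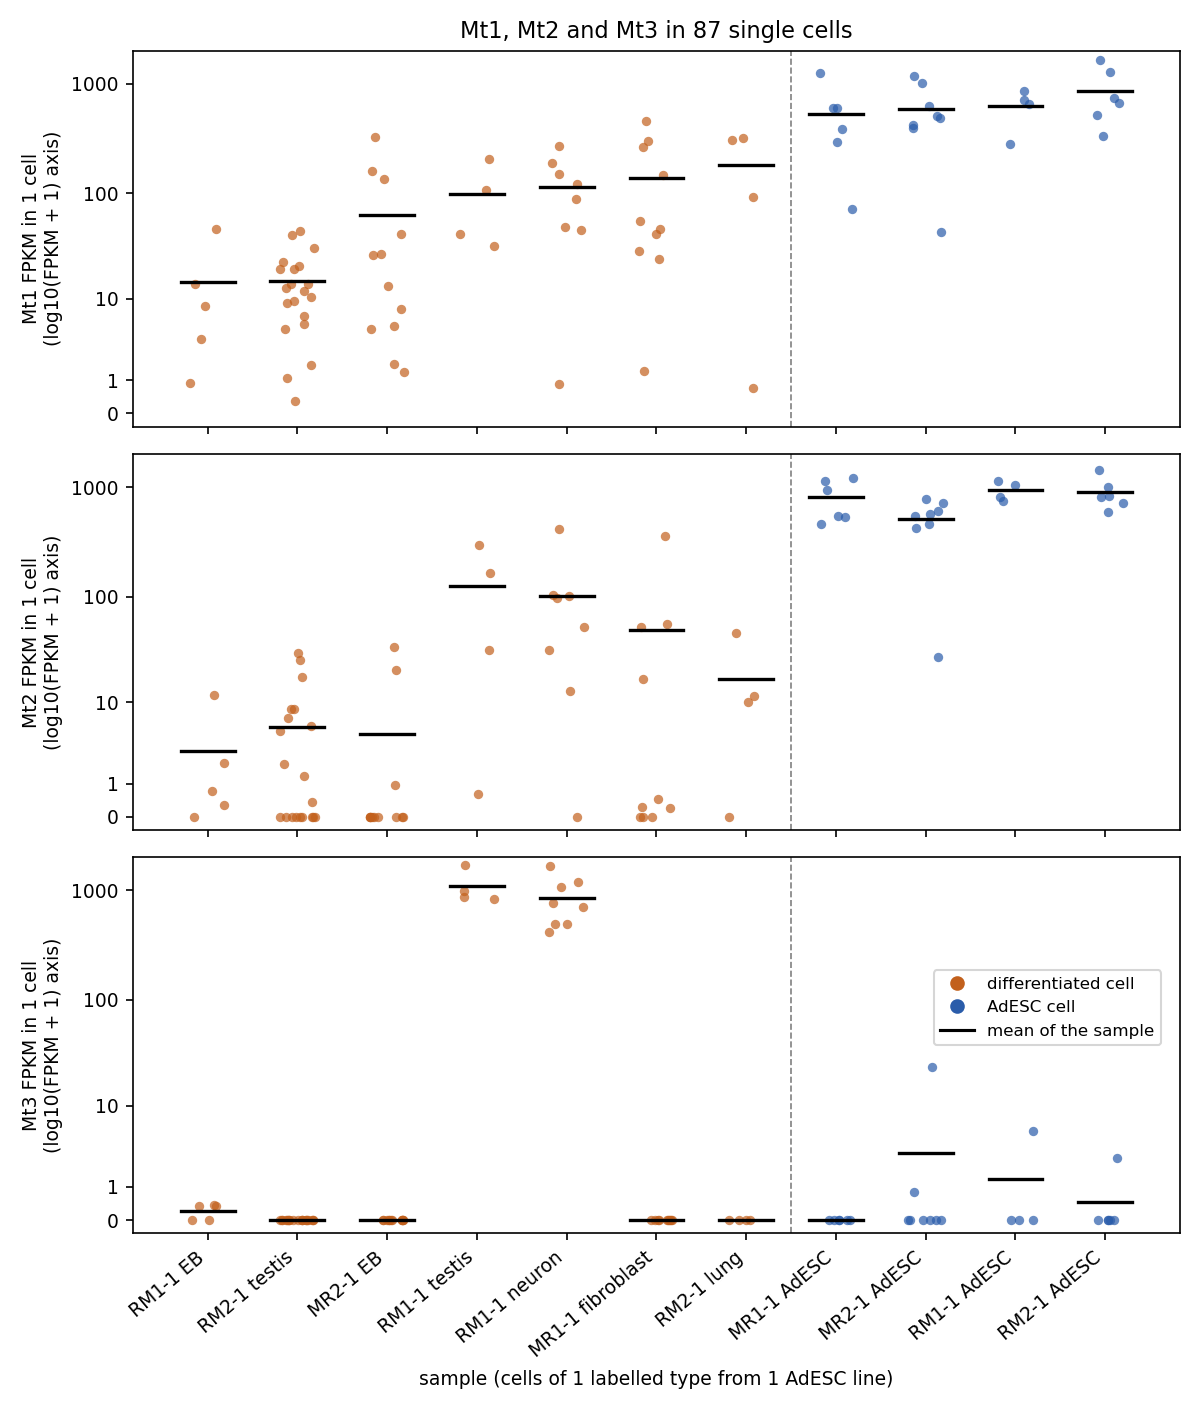
FPKM of Mt1, Mt2 and Mt3 in each of 87 cells on a log10(FPKM + 1) axis, by sample, with differentiated samples left of the dashed line and AdESC samples right of it; black bars are sample means. Mt1 and Mt2 means of AdESC samples lie above those of every differentiated sample, and Mt3 is high in the RM1-1 testis and RM1-1 neuron samples alone.

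Cell by cell, most differentiated cells had Mt1 at a low level, and about as many lacked Mt2 at 1 FPKM as had it. Mt1 reached 1 FPKM in 59 of 63 differentiated cells and in 24 of 24 AdESC cells. Mt2 reached it in 31 of 63 differentiated cells, 24 of the rest being listed at 0, and in 24 of 24 AdESC cells. The median differentiated cell held 26.6 FPKM of Mt1 and 0.923 FPKM of Mt2, and the median AdESC cell 597 FPKM of Mt1 and 732 FPKM of Mt2. None of the 63 differentiated cells reached the AdESC median of either gene. The ranges did meet at their edges: 40 differentiated cells were below the lowest AdESC cell for Mt1 (43.8 FPKM) and 48 for Mt2 (27.5 FPKM). That lowest AdESC cell was the same for both genes, and for Mt2 all 63 differentiated cells were below the second-lowest AdESC cell (421 FPKM). Cells of a sample share their source, so these counts describe the samples and are not replicates.

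Where a differentiated cell had only 1 of the pair at 1 FPKM or more, it was Mt1. Both reached 1 FPKM in 31 of them, Mt1 alone in 28, Mt2 alone in 0 and neither in 4. Mt1 was the higher in 55 of the 63 differentiated cells and in 12 of the 24 AdESC cells. In the bulk libraries, by contrast, Mt2 was the higher of the pair in each of the 8. The ratio of Mt2 to Mt1 means was 0.0735 in MR2-1 EB, 0.0939 in RM2-1 lung, 0.199 in RM1-1 EB, 0.355 in MR1-1 fibroblasts, 0.369 in RM2-1 testis, 0.884 in RM1-1 neurons and 1.28 in RM1-1 testis. In AdESC cells it was 0.880 in MR2-1, 1.04 in RM2-1 and 1.51 in both MR1-1 and RM1-1. In bulk libraries of the same AdESC lines it lay between 1.59 and 2.18. The groups overlapped in this ratio, since RM1-1 testis lay above MR2-1 and RM2-1 AdESC, and RM1-1 neurons above MR2-1 AdESC. On the log2 scale differentiated minus AdESC was -1.90 for the ratio, and between -2.23 and -1.59 when each sample was left out in turn. Taking medians over cells moved it to -3.09.

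**Figure D2:**
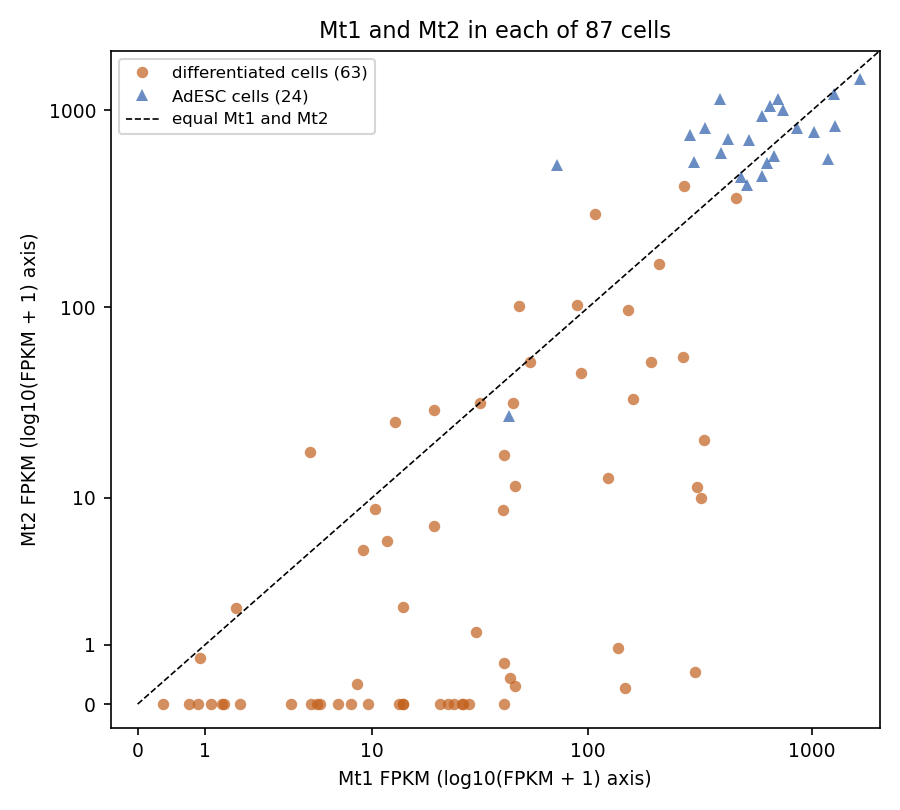
Mt2 FPKM against Mt1 FPKM in each of 63 differentiated cells (circles) and 24 AdESC cells (triangles), both on log10(FPKM + 1) axes, with equal levels on the dashed line. Differentiated cells lie mostly below the line, with 24 of them listed at 0 for Mt2, and AdESC cells gather near the line at the upper right.

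Mt1 and Mt2 tended to vary together across cells, more closely in some samples than in others. Pearson's r on the log2(FPKM + 1) scale was 0.629 over the 63 differentiated cells and 0.709 over the 24 AdESC cells, each cell giving both values from 1 library. Within differentiated samples r ran from 0.200 in RM2-1 testis cells to 0.853 in RM1-1 neurons. Within AdESC samples r ran from 0.538 in RM1-1 to 0.920 in MR2-1. The MR2-1 AdESC sample holds the AdESC cell that is lowest for both genes (Mt1 at 43.8 and Mt2 at 27.5 FPKM). The r over AdESC cells without that cell was not computed, so its part in the 0.709 is not known. Over the 11 samples it was 0.912, where differentiated and AdESC samples form separate clusters, and over the 7 differentiated samples alone 0.710. These values describe cells and samples that share library and scaling.

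Single cells carried much of some sample means. In MR1-1 fibroblasts 1 cell had 360 FPKM of Mt2 and 459 FPKM of Mt1, the highest of its sample for both. That cell also held the stem cell genes Pou5f1 at 71.2 FPKM and Tfcp2l1 at 26.1 FPKM, which were at 0 and at up to 0.281 FPKM in the other 9 fibroblasts. Nanog, Sox2 and Esrrb of the same list were at 0 in it, and Klf4, at 23.7 FPKM, lay inside the range of the others. Without it, the fibroblast mean was 14.0 FPKM for Mt2 and 101 FPKM for Mt1. Leaving out its highest cell lowered the Mt2 mean by more than 1.5 times in 6 of the 7 differentiated samples, RM2-1 testis being the exception, and the Mt1 mean in 3 of 7 (MR2-1 EB, RM1-1 EB and RM1-1 testis). In RM1-1 EB the Mt2 mean was 0.766 FPKM without its highest cell (11.7 FPKM), and in MR2-1 EB it was 1.96 FPKM without its highest cell (33.7 FPKM). In RM2-1 lung, the cells with Cyp11a1 above 100 FPKM had Mt1 at 306 and 321 FPKM, against 0.692 and 92.9 FPKM in the other 2 cells. For Mt2 the same Cyp11a1 cells stood at 10.1 and 11.6 FPKM, against 0 and 46.0 FPKM. These cells were singled out after their values were seen. In the MR2-1 AdESC sample the lowest cell had Mt1 at 43.8 FPKM and Mt2 at 27.5 FPKM, and the other 7 AdESC cells averaged 663 FPKM of Mt1 and 585 FPKM of Mt2.

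Mt3 followed another pattern. It averaged 1107 ± 414 FPKM in RM1-1 testis cells (SD over 4 cells) and 852 ± 432 FPKM in RM1-1 neurons (SD over 8 cells), above 100 FPKM in each of these 12 cells and in 0 of the other 75. In RM1-1 AdESC cells it averaged 1.36 FPKM. These are the samples with the neural genes Gap43 and Slc1a3, and the differentiated samples with the highest Mt2. There Mt3 was above both Mt1 and Mt2, which makes them the only samples of the 11 where another metallothionein exceeded the pair. Mt4 was listed at 0 in all 87 cells and stood at up to 2.19 FPKM in the bulk libraries.

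In descending order of Mt1 level the samples were RM2-1, RM1-1, MR2-1 and MR1-1 AdESC, then RM2-1 lung, MR1-1 fibroblast, RM1-1 neuron, RM1-1 testis, MR2-1 EB, RM2-1 testis and RM1-1 EB. No neighbours in this order differed by more than the larger of their SDs over cells. RM2-1 lung, the highest differentiated sample (180.1 ± 159 FPKM), stood 354 FPKM below MR1-1, the lowest AdESC sample (535 ± 405 FPKM). For Mt2 the order was RM1-1, RM2-1, MR1-1 and MR2-1 AdESC, then RM1-1 testis, RM1-1 neuron, MR1-1 fibroblast, RM2-1 lung, RM2-1 testis, MR2-1 EB and RM1-1 EB. Here RM1-1 testis (124 ± 136 FPKM) stood 391 FPKM below MR2-1 AdESC (515 ± 230.5 FPKM), the one step in this order larger than both SDs.

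In bulk stem cells the pair ranked among the most abundant transcripts. Mt2 had the highest FPKM of all 13926 genes in 4 of 8 libraries (AdESC MR2-1 and RM2-1, rat DA25 and DA53), where it made up between 1.56% and 3.68% of summed FPKM. It was the second in AdESC MR1-1, the third in AdESC RM1-1 and mouse F145, and number 16 in mouse F146 with 0.638% of summed FPKM. Mt1 ranked between 3 and 28 in AdESC, at 5 and 13 in rat and at 5 and 53 in mouse. In bulk RNA a lower share of cells with a transcript and a lower level per cell cannot be told apart.

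Mt1 stood at 2697 FPKM in MR1-1, 3506 in MR2-1, 1658 in RM1-1 and 3437 in RM2-1, against 3323 FPKM in rat DA25 and 2594 in DA53, and 2423 FPKM in mouse F145 and 920.4 in F146. Mt2 stood at 4292 FPKM in MR1-1, 6389 in MR2-1, 3261 in RM1-1 and 7499 in RM2-1, against 12979.6 FPKM in rat DA25 and 5875 in DA53, and 3667 FPKM in mouse F145 and 2212 in F146. AdESC lines overlapped both parental groups for both genes, and both rat lines were above both mouse lines for each gene. With 2 lines per group this order can arise by chance, and the share of all genes ordered in this way was not counted. For Mt1 the nearest lines were DA53 at 2594 FPKM and F145 at 2423 FPKM. Mt1 averaged 2824 ± 859 FPKM in AdESC (SD, n = 4), 2958 ± 515 in rat (SD, n = 2) and 1672 ± 1062 in mouse (SD, n = 2). Mt2 averaged 5360.3 ± 1931 FPKM in AdESC, 9427 ± 5024 in rat and 2939.5 ± 1029 in mouse. The rat lines stood far apart for Mt2, and so did the mouse lines for Mt1.

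On the log2(FPKM + 1) scale AdESC minus mouse was 0.86 for Mt1 and 0.84 for Mt2, with pooled SDs of 0.66 and 0.54. For Mt1 that difference rests on 1 mouse line: it was 0.16 without F146 and 1.56 without F145. For Mt2 it was 0.47 without F146 and 1.201 without F145. AdESC minus rat was -0.12 for Mt1 and -0.78 for Mt2, with pooled SDs of 0.45 and 0.62. The sign for Mt1 was not stable, since it was 0.06 without DA25, 0.12 without RM1-1 and 0.23 after upper-quartile scaling. For Mt2 the difference from rat was -0.21 without DA25, -1.35 without DA53 and -0.43 after that scaling. Rat minus mouse was 0.97 for Mt1 and 1.62 for Mt2, with pooled SDs of 0.72 and 0.68, and leaving out single lines moved it to between 0.28 and 1.67 for Mt1 and between 1.04 and 2.19 for Mt2. The lowest values came without F146 for Mt1 and without DA25 for Mt2. An AdESC value joins mouse and rat transcripts in a way the sources used here do not give, and comparing species also rests on the gene model of each. The fibroblast and feeder list (16 of 17 listed genes in the tables) summed to between 558 and 749.5 FPKM in AdESC, 369 and 695 FPKM in rat, 3798 FPKM in mouse F145 and 690.0 FPKM in mouse F146. In rat that sum was mostly Fn1 (323.6 FPKM in DA25 and 673.9 FPKM in DA53). Without Fn1 the list summed to between 229.6 and 391 FPKM in AdESC, 20.8 and 45.7 FPKM in rat, 3291 FPKM in F145 and 495 FPKM in F146. Between 11 and 14 of the 16 genes reached 1 FPKM in AdESC, 3 and 4 in rat, 16 in F145 and 14 in F146, and Col1a2, Col3a1, Lum, Dcn, Thy1 and Prrx1 were at 0 in both rat lines. Mouse F145 was also the mouse line with more Mt1 and Mt2, and the part of these genes in that difference was not tested.

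**Figure D3:**
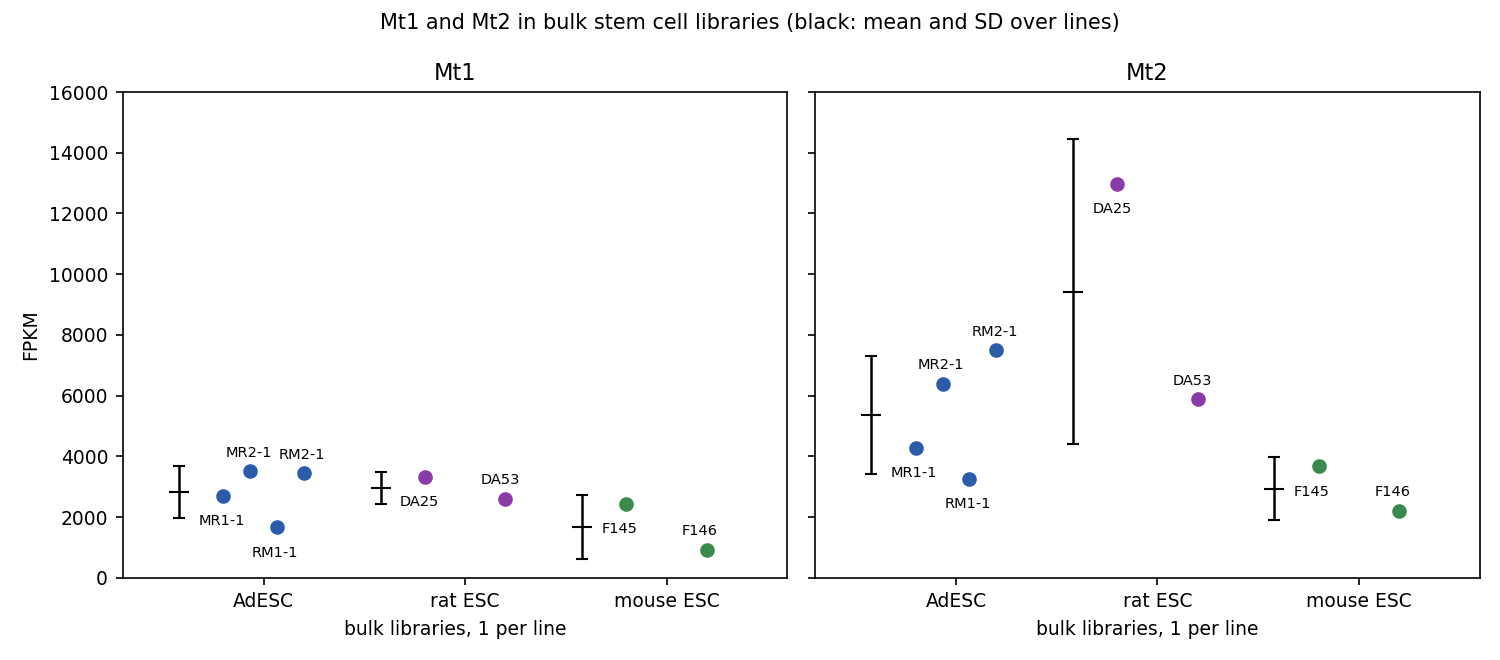
FPKM of Mt1 (left) and Mt2 (right) in 8 bulk stem cell libraries, 1 point per line, with the mean and SD over lines in black. AdESC points overlap both parents, and rat DA25 stands alone for Mt2 at 12979.6 FPKM. The 2 rat points lie above the 2 mouse points, narrowly for Mt1.

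The same 4 AdESC lines were measured in both tables, which were made separately, so their levels are set side by side only. Bulk Mt1 over the single-cell mean was 5.05 in MR1-1, 5.99 in MR2-1, 2.66 in RM1-1 and 3.98 in RM2-1. Bulk Mt2 over the single-cell mean was 5.33, 12.4, 3.47 and 8.38 in the same lines. Over 2131 genes at 10 FPKM or more in both tables the median of this ratio lay between 0.723 and 0.968. Both metallothioneins were thus lower in captured single cells than in bulk RNA of each line, while the median gene was slightly higher in the cells, and no test was made of it. Line order differed too: RM1-1 was the lowest AdESC line in bulk for both genes but the highest for Mt2 in single cells.

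Genes averaging 10 FPKM or more over the 11 single-cell samples numbered 3959, and those most like the mean of Mt1 and Mt2 on the log2(FPKM + 1) scale were Uchl5 (Pearson's r = 0.948), Idh3g (0.932), Ncoa4 (0.927), Shmt1 (0.922) and Eif2b5 (0.911). Ncoa4, the receptor that delivers ferritin for breakdown, ran from 13.0 to 58.7 FPKM in differentiated samples and from 53.1 to 80.3 FPKM in AdESC samples. The least like were Rcn3 (-0.934), Tpm1 (-0.934) and Tagln (-0.931). Tagln, a smooth muscle actin-binding protein, ran from 36.4 to 3939 FPKM in differentiated samples and from 0 to 0.126 FPKM in AdESC samples. These values mostly restate the step between 2 clusters of samples. Within the 7 differentiated samples r was 0.878 for Uchl5, 0.879 for Ncoa4, 0.876 for Shmt1, 0.716 for Idh3g and 0.643 for Eif2b5. It was -0.787 for Rcn3, -0.783 for Tpm1 and -0.712 for Tagln. The genes were picked by r over the 11 samples, which include these 7, so such values are partly fixed by the choice. How r within the 7 samples spreads over all 3959 genes was not tabulated.

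Genes that act with metallothioneins were tested between the 7 differentiated and the 4 AdESC samples with limma on log2(FPKM + 1) and with Benjamini-Hochberg adjustment over all 8421 genes past a mean of 1 FPKM. Of those, 15.9% were called at an adjusted p under 0.05, 7.37% higher and 8.57% lower. The 7 lists together had 15 calls among 90 tested genes (16.7%), close to that background. In the zinc list 16 of 23 measured genes were tested, 1 rose and 1 fell, and the median log2 difference was 0.62, against 0.02 for all genes tested. The MTF1 gene itself, Mtf1, averaged 1.29 ± 1.10 FPKM in differentiated and 1.199 ± 0.43 FPKM in AdESC samples (log2 difference -0.05, limma 95% interval -1.06 to 0.96, adjusted p = 0.956). Slc30a1, the exporter that MTF1 also drives, averaged 1.75 ± 2.26 FPKM in differentiated and 2.45 ± 1.57 FPKM in AdESC samples (log2 difference -0.53, limma 95% interval -1.86 to 0.80, adjusted p = 0.585). Neither passed the test, and their intervals are wide. Slc30a2, a transporter that loads zinc into vesicles, fell: it was listed at 0 in all 7 differentiated samples and lay between 1.01 and 9.86 FPKM in AdESC samples (limma adjusted p = 0.00871). Slc39a13, a zinc transporter of the secretory pathway, rose to 8.73 ± 8.28 FPKM in differentiated samples, against 0.763 ± 0.610 FPKM in AdESC samples (limma adjusted p = 0.0456). That call was lost without any 1 of the 4 AdESC samples (adjusted p 0.0800 to 0.140) and without the MR2-1 EB, RM1-1 EB, RM1-1 testis, RM2-1 testis or RM2-1 lung sample (0.0586 to 0.0791), without the RM1-1 testis and RM2-1 lung samples together (0.0956), without a filter (0.0931), at the median over cells (0.162) and at mean log2 values (0.0681).

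Of 24 NRF2 and redox genes tested, 1 rose and 2 fell (12.5%, against 15.9% of all genes tested), with a median log2 difference of 0.25. The Sod1 call is the one of the 3 that held in every alternative. Sod1, the copper-zinc superoxide dismutase, fell to 720.3 ± 272 FPKM in differentiated samples, against 2778 ± 361 FPKM in AdESC samples (log2 difference -2.03 ± 0.27 SE, limma adjusted p = 0.000112). Its samples lay between 373 and 1068 FPKM in differentiated cells and between 2472 and 3193 FPKM in AdESC. In bulk AdESC libraries, a table made separately, Sod1 lay between 725 and 1413 FPKM, lower than in AdESC single cells, whereas the pair was higher there. Hmox1, the haem oxygenase that stress induces, fell to 32.7 ± 18.6 FPKM in differentiated samples, against 84.5 ± 21.4 FPKM in AdESC (limma adjusted p = 0.0189). Gpx4, which reduces lipid peroxides, rose to 263 ± 89.9 FPKM in differentiated samples, against 124 ± 23.5 FPKM in AdESC (limma adjusted p = 0.0222). Both calls were lost without MR1-1, RM1-1 or RM2-1 AdESC (adjusted p 0.0502 to 0.0737 for Hmox1 and 0.0525 to 0.0857 for Gpx4), and Gpx4 also at the median over cells (0.0518). Nfe2l2, the NRF2 gene, averaged 58.5 ± 30.4 FPKM in differentiated and 36.3 ± 10.1 FPKM in AdESC samples and did not pass (log2 difference 0.57, limma adjusted p = 0.308). Of 14 copper and iron genes tested 1 rose, with a median of -0.17. It was the iron exporter Slc40a1, between 0.00624 and 14.5 FPKM in differentiated samples and listed at 0 in all AdESC samples (limma adjusted p = 0.0429). That call was lost without any 1 AdESC sample (adjusted p 0.0998 to 0.103) and without the MR2-1 EB, RM1-1 EB, RM1-1 testis, MR1-1 fibroblast or RM2-1 lung sample (0.0543 to 0.0671), without the RM1-1 testis and RM2-1 lung samples together (0.0861) and without a filter (0.0842).

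Of 5 genes tested in the glucocorticoid list 1 rose and 2 fell (median 0.95), where 7.37% of all genes tested rose and 8.57% fell. Nr3c1, the receptor, rose to 7.37 ± 4.56 FPKM in differentiated samples, against 1.14 ± 0.86 FPKM in AdESC (log2 difference 1.91 ± 0.51 SE, limma adjusted p = 0.0195). Sgk1, a kinase that glucocorticoids induce, fell to 49.5 ± 36.2 FPKM in differentiated samples, against 184 ± 82.6 FPKM in AdESC (limma adjusted p = 0.0145). Klf9, a transcription factor of the same response, fell to 4.45 ± 3.14 FPKM in differentiated samples, against 19.7 ± 7.26 FPKM in AdESC (limma adjusted p = 0.0182). The response genes Dusp1 and Errfi1 had log2 differences of 0.95 and 1.08, the same sign as Nr3c1. Neither was called (limma adjusted p = 0.234 and 0.310). The Nr3c1 call was lost without RM1-1 (adjusted p = 0.0817) or RM2-1 AdESC (0.0555) and at the median over cells (0.0699), the Sgk1 call without MR1-1 AdESC (0.0680) or without a filter (0.05004) and the Klf9 call without MR1-1, RM1-1 or RM2-1 AdESC (0.0537 to 0.0739).

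Of 11 hypoxia genes tested 2 rose and 0 fell (median 0.89), and of 13 immediate early and heat shock genes 3 rose and 1 fell (median 1.36). Over all genes tested 7.37% rose and 8.57% fell. P4ha1, a collagen prolyl hydroxylase, rose to 49.0 ± 33.3 FPKM in differentiated samples, against 3.53 ± 1.43 FPKM in AdESC (log2 difference 3.19 ± 0.54 SE, limma adjusted p = 0.000915). Fos, an AP-1 transcription factor, rose to 87.9 ± 86.5 FPKM in differentiated samples, against 4.47 ± 3.77 FPKM in AdESC (log2 difference 4.05 ± 0.61 SE, limma adjusted p = 0.000368). Its partner Jun rose to 8.45 ± 6.02 FPKM in differentiated samples, against 0.369 ± 0.346 FPKM in AdESC (limma adjusted p = 0.00555). The chaperone gene Hsph1 fell to 21.0 ± 11.6 FPKM in differentiated samples, against 65.3 ± 14.1 FPKM in AdESC (limma adjusted p = 0.00691). Adm, a vasodilator peptide, and the early response gene Ier3 also rose, by 2.55 and 2.45 on the log2 scale (limma adjusted p = 0.0189 and 0.0124). Adm was lost without MR2-1 (adjusted p = 0.0651) or RM1-1 AdESC (0.0735), at the median over cells (0.315) and at mean log2 values (0.0540), and Ier3 without MR2-1 AdESC (0.0589), at the median over cells (0.373) and at mean log2 values (0.133). The calls of Sod1, P4ha1, Fos, Jun and Hsph1 held in all 18 alternatives. The Slc30a2 call held in the 16 in which it was tested, which leave out the median over cells and mean log2 values. None of the 7 neighbours of the pair on chromosome 8 that were tested was called (limma, 1 at an unadjusted p under 0.05), with a median of 0.01. Of all genes tested, 15.9% were called.

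**Figure D4:**
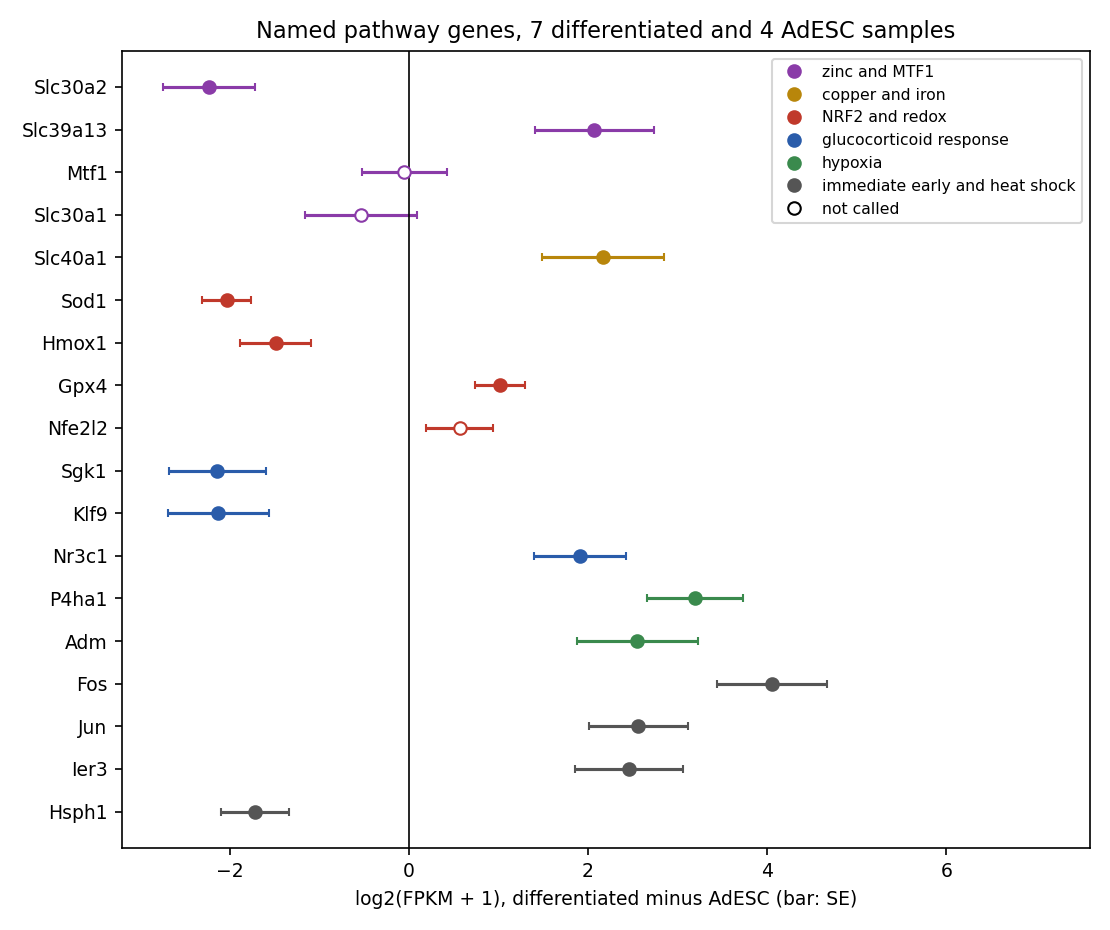
Difference in log2(FPKM + 1) between 7 differentiated and 4 AdESC samples, with the SE of the fit as bars, for the genes of the lists named in the text; filled points were called at an adjusted p under 0.05. Sod1, Hmox1, Slc30a2, Sgk1, Klf9 and Hsph1 lie left of 0, and Mtf1 lies at -0.05.

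In the bulk fits the same lists held few calls between AdESC and either parent. Against mouse, 3.89% of 8794 genes were called (2.71% higher and 1.18% lower), and in the lists 1 of 23 redox genes fell, 1 of 11 hypoxia genes rose and 0 were called in the other 5 (limma, with 5 zinc, 2 copper and iron, 1 glucocorticoid, 2 immediate early and 0 neighbour genes at an unadjusted p under 0.05). Sod2, the mitochondrial superoxide dismutase, fell to 23.8 ± 0.70 FPKM in AdESC, against 54.9 ± 4.16 FPKM in mouse (limma adjusted p = 0.0192), and was lost without F145, DA25, DA53, MR2-1 or RM1-1 (0.0511 to 0.0680). Slc2a1, a glucose transporter, rose to 334 ± 92.8 FPKM in AdESC, against 117 ± 35.0 FPKM in mouse (limma adjusted p = 0.0285), and was lost without F146 (0.126), DA25, DA53 or MR2-1 (0.0532 to 0.0770) and without a filter (0.0563). Mtf1 was at 3.89 ± 0.38 FPKM in AdESC, 4.99 ± 0.47 in rat and 3.00 ± 0.14 in mouse, and Slc30a1 at 15.0 ± 3.81, 15.96 ± 3.33 and 9.33 ± 2.79 FPKM in the same groups. Neither was called in any of the 3 bulk comparisons (limma adjusted p between 0.162 and 0.870).

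Against rat, 9.7% of the genes were called (5.79% higher and 3.91% lower), and in the lists 1 copper and iron, 1 glucocorticoid and 1 immediate early gene rose, 1 heat shock gene fell and 0 of 18 zinc, 23 redox, 11 hypoxia and 6 neighbour genes were called (limma, with 4, 7, 2 and 0 at an unadjusted p under 0.05). Ccs, the copper chaperone of Sod1, stood at 14.0 ± 2.097 FPKM in AdESC and was listed at 0 in both rat lines. The part of the rat gene model in that 0 was not tested. Dusp1, a phosphatase that glucocorticoids induce, rose to 53.5 ± 17.0 FPKM in AdESC, against 1.37 ± 0.29 FPKM in rat (log2 difference 4.47 ± 0.68 SE, limma adjusted p = 0.00274). Nr4a1, an immediate early receptor, rose and Dnajb1, a heat shock co-chaperone, fell in AdESC (limma adjusted p = 0.0415 and 0.0475). Both were lost without DA25 (adjusted p = 0.218 for Nr4a1 and 0.287 for Dnajb1), DA53 (0.230 and 0.291) or any 1 AdESC line (0.0592 to 0.0706 and 0.0567 to 0.0993), Nr4a1 also without a filter (0.108) and Dnajb1 after upper-quartile scaling (0.141). Between rat and mouse 26.6% of the genes were called (14.1% higher and 12.6% lower). In the lists 4 of 18 zinc genes rose and 2 fell, 1 of 12 copper and iron genes rose and 2 fell, 4 of 23 redox genes rose and 5 fell, 0 of 8 glucocorticoid genes rose and 1 fell, 2 of 11 hypoxia genes rose and 0 fell, and 1 of 13 immediate early and heat shock genes rose and 2 fell. None of 6 neighbours was called (limma, 0 at an unadjusted p under 0.05). The lists together had 24 calls among 91 tested genes (26.4%), close to the background. Among those named by the rule, 5 kept their call in every alternative that tested them. Pdk1, a hypoxia-induced kinase of pyruvate metabolism, rose to 36.1 ± 1.90 FPKM in rat, against 7.13 ± 3.15 FPKM in mouse (limma adjusted p = 0.00589), and Slc2a1 rose to 477 ± 67.6 FPKM in rat, against 117 ± 35.0 FPKM in mouse (limma adjusted p = 0.00231). Dusp1 fell to 1.37 ± 0.29 FPKM in rat, against 13.2 and 123.9 FPKM in mouse (limma adjusted p = 0.00391). Slc39a5, a zinc importer, stood at 1.54 and 3.30 FPKM in rat, against 0 and 0.0940 FPKM in mouse (limma adjusted p = 0.0111). Ccs was listed at 0 in rat and stood at 20.0 and 53.4 FPKM in mouse (limma adjusted p = 3.88e-05), with the same limit of the rat gene model. The 3 bulk comparisons share libraries, so their values stand side by side and are not independent.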

How the data were processed

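The 2 deposited tables hold FPKM values, 1 per homologue and bulk library or single cell, which the authors made with TopHat2 2.0.10 and Cufflinks 2.1.1 after FastQC 0.10.1 on mm10 and rn5, per the submitters' processing notes. How mouse and rat values were joined in AdESC libraries is not given in the sources used here, and FPKM keeps no read depth, so no counting intervals are given. Total RNA was isolated with Trizol and made into TruSeq mRNA libraries, per the labels' protocols. Cells of a sample were averaged. The log2(FPKM + 1) values of genes averaging 1 FPKM or more were then compared in R 4.3.3 by limma 3.58.1, whose prior variance followed the mean. The Benjamini-Hochberg method was applied across every tested gene, with a threshold of 0.05. The fits were tested on simulated data. A value of 1 FPKM counted as detected.

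Members and lists were chosen with earlier results of these data known. Named are Mtf1, Slc30a1, Nfe2l2 and Nr3c1, list genes called in the single-cell fit (up to 6 per list) or in bulk (up to 3 per list and fit), and the genes most and least like the pair. Of those between rat and mouse, the 5 whose call held in every alternative are described. Replicates are lines or samples, and nothing says they came from separate cultures, so a p-value here covers only the spread among these samples. AdESC and derived samples share cell lines and so are paired by origin. Deviations from the group means correlated by -0.015 to 0.028 within lines. Alternatives were another pseudocount, scaling, filter or summary of cells, the line as a block and each sample left out. Coding sequences were read from GENCODE vM21 transcripts by their annotation.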

Additional observations from a re-analysis of the deposited data

Results flagged for a closer look

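Among 24 groups of cells or lines of Mt1 and Mt2 values, 3 held a value far from the others. The rule flags about 1 in 20 groups when values are independent and normal, which single-cell values need not be. Mt1 and Mt2 groups also share their cells, and the MR2-1 AdESC flags of both genes fall on the same cell. The count of flags is therefore not set against chance. In RM1-1 neurons the lowest of 8 cells had Mt1 at 0.861 FPKM, and the other 7 lay between 45.8 and 269 FPKM. That cell was listed at 0 for Mt2 and had Mt3 at 1065 FPKM. In MR2-1 AdESC the lowest of 8 cells had Mt1 at 43.8 FPKM, against 391.6 to 1181 FPKM in the other 7 cells, and the same cell had Mt2 at 27.5 FPKM, against 421 to 778 FPKM. Its Nanog stood at 7.46 FPKM, against 206 to 816 FPKM, its Epcam at 0.238 FPKM, against 18.9 to 95.6 FPKM, and its Sod1 at 739.8 FPKM, against 1244 to 5457 FPKM. Sox2 was at 2.55 FPKM, against 9.82 to 54.2 FPKM. Other markers in that cell lay inside the range of the other 7 cells: Pou5f1 at 74.1 FPKM (44.0 to 154 FPKM), Tfcp2l1 at 113.5 FPKM (48.6 to 179 FPKM), Esrrb, Klf4 and the epithelial gene Cdh1 at 42.1 FPKM (4.61 to 50.1 FPKM).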

How the results depend on the processing

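Differentiated minus AdESC stayed below 0 for Mt1 (-3.98 to -2.98) and Mt2 (-6.90 to -4.81) under every alternative run. Mt1 for AdESC minus rat turned to 0.23 with upper-quartile scaling and lay between -0.29 and 0.12 when single lines were left out (0.06 without DA25, 0.12 without RM1-1), and Mt1 for AdESC minus mouse lay between 0.16 and 1.56. With the cell line as a replicate block, 1457 genes were called in the single-cell fit against 1343 without it, Mt1 was at -3.25 and Mt2 at -5.39, and no call named in the text changed. No paired analysis was possible in bulk because the 3 groups share no line. Leaving out 1 sample gave 791 to 1367 calls in the single-cell fit, 151 to 344 for AdESC against mouse (342 in all), 223 to 1063 for AdESC against rat (853) and 1059 to 2435 for rat against mouse (2343), where fewer samples are compared. The split of higher and lower calls, 621 and 722 in the single-cell fit, was 299 and 843 with medians over cells and 464 and 1110 with mean log2 values. For AdESC against mouse (238 and 104) it was 297 and 55 at a pseudocount of 0.1 and 159 and 152 without a filter. For AdESC against rat (509 and 344) it was 741 and 308 at that pseudocount and 752 and 164 with upper-quartile scaling, with the median of all genes at 0.20 in place of -0.11. For rat against mouse (1239 and 1104) that scaling gave 887 and 1501, with the median at -0.19 in place of 0.08. Cells per sample (4 to 20) limit single-cell means, and bulk parents have 2 lines each.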
